A study of Mus musculus with 9 samples.

Results

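The 8 genes described here, Kit, Flt3, Tek, Csf1r, Csf3r, Csf2rb, Il7r and Il6st, encode receptors for growth factors and cytokines of blood formation. They were chosen by name, as 8 of 21887 protein-coding genes, and every peak within their RefSeq span (mm10 coordinates) or within 50 kb on either side of it was read. Peaks came from CUT&Tag, which cuts and tags DNA beside an antibody-bound protein or histone mark, in sorted bone marrow cells of C57BL/6 mice aged 12 weeks under homeostatic conditions. The cKO mice were Dekfl/fl,Tie2-Cre a design that deletes the gene of the chromatin protein DEK where the Cre acts, and the fl controls were Dekfl/fl without Cre. H3K27ac and H3K4me3 were each profiled in 1 cKO and 1 fl library of LSK cells (Lin-Sca-1+c-Kit+, about 50000 cells), and H3K9ac in 1 cKO and 1 fl library of HSC (LSK cells that are CD48-CD150+, about 20000 cells). DEK itself was profiled in 3 libraries of fl HSC and in no cKO library.

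The labels do not say how many mice gave each library. The Cre is driven from the promoter of Tek, whose product is also called Tie2, so it acts in endothelial as well as blood cells, and sequence of a Tie2-Cre transgene that copies the Tek promoter cannot be told apart from Tek itself in the cKO lists. The c-Kit of both sorting gates is the product of Kit. With 1 library per genotype and mark, no difference between cKO and fl has a replicate check and no test was made.

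These receptors pass signals from outside the cell in different ways. Kit (the receptor of stem cell factor), Flt3, Tek and Csf1r are tyrosine kinases, which dimerise on their ligand and phosphorylate each other. Csf3r, Csf2rb, Il7r and Il6st have no kinase of their own and signal through bound JAK kinases to STAT factors. Kit holds stem and progenitor cells, Flt3 marks multipotent progenitors on the way to lymphoid and dendritic cells, and Csf1r, Csf3r and Il7r are receptors of the macrophage, granulocyte and lymphoid branches. H3K4me3 marks promoters, and H3K27ac marks active promoters and enhancers.

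The stretch before the start site of 4 of the genes is shown because they span the marking found below: Kit with H3K27ac in the cKO list and not in the fl list, Flt3 and Il6st with it in both, and Il7r with it in neither. The sequences are RefSeq's for GRCm38.p6, 5′ to 3′ on the gene's own strand and ending just before the start site, except that the Il7r sequence ends where its annotated span begins. Capitals mark each CpG, the dinucleotide that is dense at many promoters with H3K4me3. Kit lies at chr5:75574737-75574986 on the plus strand, Flt3 at chr5:147400490-147400739 on the minus strand, Il6st at chr13:112463820-112464069 on the plus strand and Il7r at chr15:9529942-9530126 on the minus strand.
Kit: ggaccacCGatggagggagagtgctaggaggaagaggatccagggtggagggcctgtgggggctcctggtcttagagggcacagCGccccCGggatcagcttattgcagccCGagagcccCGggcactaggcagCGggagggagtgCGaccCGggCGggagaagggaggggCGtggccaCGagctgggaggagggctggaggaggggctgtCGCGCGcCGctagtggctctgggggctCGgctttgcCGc
Flt3: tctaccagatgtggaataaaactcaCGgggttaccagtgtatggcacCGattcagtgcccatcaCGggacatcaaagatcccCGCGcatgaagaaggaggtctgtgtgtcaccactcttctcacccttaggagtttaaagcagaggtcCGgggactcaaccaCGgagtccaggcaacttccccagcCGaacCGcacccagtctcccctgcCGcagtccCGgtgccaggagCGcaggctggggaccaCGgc
Il6st: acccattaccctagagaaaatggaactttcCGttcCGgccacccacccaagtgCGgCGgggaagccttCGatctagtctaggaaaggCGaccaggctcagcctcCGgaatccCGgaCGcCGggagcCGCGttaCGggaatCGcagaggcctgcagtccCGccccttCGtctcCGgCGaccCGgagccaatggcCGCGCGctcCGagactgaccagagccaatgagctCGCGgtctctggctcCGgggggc
Il7r: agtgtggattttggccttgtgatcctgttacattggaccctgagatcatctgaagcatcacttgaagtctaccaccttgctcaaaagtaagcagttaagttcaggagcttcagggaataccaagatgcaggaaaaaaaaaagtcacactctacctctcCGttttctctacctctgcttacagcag

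In the 250 bases before the start, Il6st had 26 CpG, Kit 17, Flt3 13, Csf3r 6, Tek 2 and Il7r 1, against a median of 6 over the 32851 promoters in the RefSeq table. The share of G and C was 70.8% at Kit, 66.0% at Il6st, 60.0% at Csf3r, 59.2% at Flt3, 51.2% at Tek and 44.0% at Il7r, where the median promoter had 52.4%. Before its other RefSeq start, Kit had 18 CpG. The 3 genes with an H3K27ac peak at the start in either genotype (Kit, Flt3, Il6st) were the 3 richest in CpG of the 6 with a sequence in the table. How often CpG-rich promoters of all genes carry H3K27ac was not worked out, so this is no trait of these receptors. Searched on both strands, GGAAGT, a core that ETS factors recognise, was in Flt3 and Il7r and is in 19.7% of all promoters. The E-box CANNTG was found 3 times at Il7r, 2 times at Tek and 1 time each at Flt3 and Il6st, and is in 66.2% of promoters. GATAAG (6.55% of promoters) and TGTGGT, a RUNX core (14.0%), were in none of the 6. The search covered all 250 bases, so the matches at Il7r, GGAAGT among them, include bases not printed above. A match is a match of letters only.

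The 9 lists held 54 peaks in the 8 windows, 16 at a promoter (overlapping the 1 kb on either side of a RefSeq start), 5 inside a gene span away from its start, and 33 outside the span. Exons and introns were not told apart. For Csf1r and Csf2rb, for which the table used gives no start site, both annotated ends were read as possible starts. The cKO and fl lists held 14 and 12 peaks for H3K27ac, 9 and 11 for H3K4me3, and 0 and 2 for H3K9ac. Tek had the most H3K27ac and Il7r a single peak in all 9 lists. Each value below is the authors' own: a fold enrichment of the summit over the background of the same library, a −log10 q, a width in bp, and a rank within its list (rank 1 has the highest −log10 q). Folds of different libraries are set side by side and not compared, because depth is unknown and the lists differ in length.

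**Figure D1:**
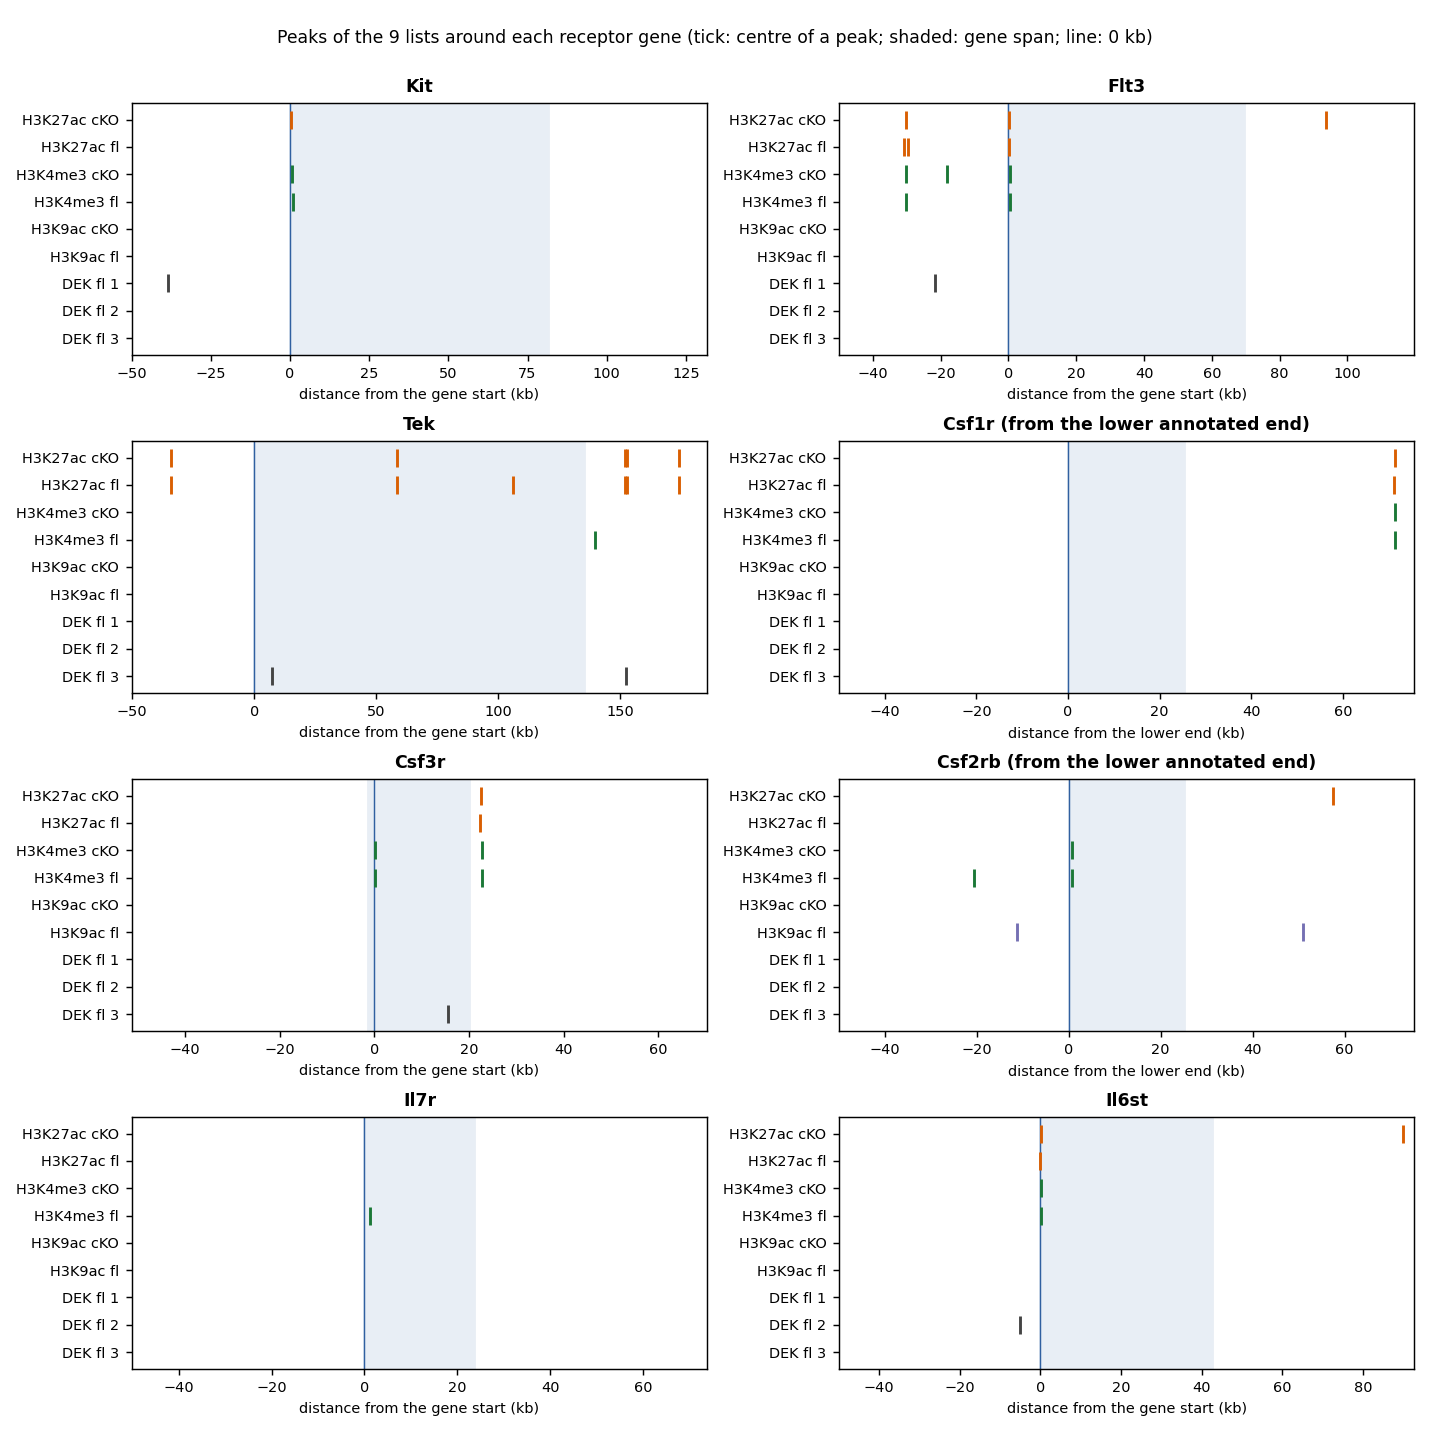
Position of every peak (tick at its centre) in the 9 lists, by distance in kb from the gene start, or from the lower annotated end for Csf1r and Csf2rb; the gene span is shaded and the window reaches 50 kb beyond it. Kit and Il6st carry their histone marks almost wholly at the start, Tek carries H3K27ac inside and outside the gene and none at its start, and Il7r has 1 H3K4me3 peak in fl.

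At the promoters, H3K27ac was in the cKO list only at 1 of the 8 genes (Kit), in both lists at 2 (Flt3 and Il6st), in the fl list only at 0, and in neither at 5 (Tek, Csf1r, Csf3r, Csf2rb and Il7r). Over all 21887 genes, 21.7% had it in cKO only, 22.3% in both, 0.361% in fl only and 55.7% in neither. H3K4me3 was in both lists at 5 of the 8 (Kit, Flt3, Csf3r, Csf2rb and Il6st), in fl only at 1 (Il7r), in cKO only at 0, and in neither at Tek and Csf1r. All genes had it in both at 42.9%, in fl only at 2.76%, in cKO only at 1.62% and in neither at 52.7%. Of the 5 genes with H3K4me3 in both lists, Flt3 and Il6st had H3K27ac in both, Kit in cKO only, and Csf3r and Csf2rb in neither. All 9399 genes with H3K4me3 in both lists had H3K27ac in both at 48.9%, in cKO only at 33.0% and in neither at 17.6%. With so few members, counts this near the shares of all genes are no result about these receptors. In whole populations of cells, fewer cells with a mark and less of the mark per cell cannot be told apart.

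**Figure D2:**
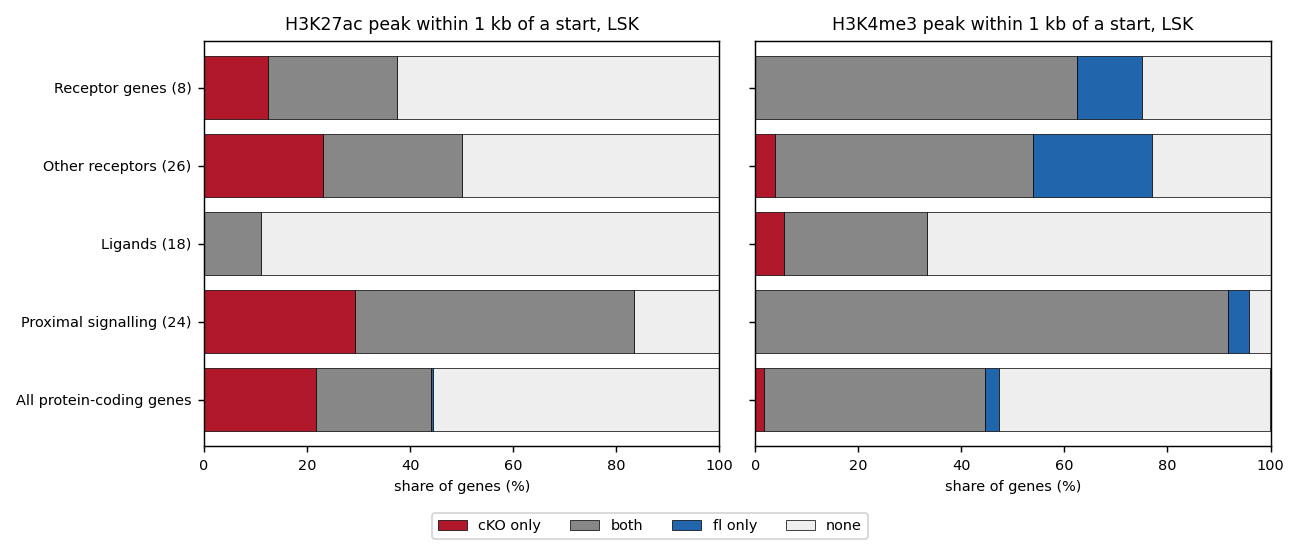
Share of genes (%) with a peak within 1 kb of a start by genotype (cKO only, both, fl only, neither), for H3K27ac (left) and H3K4me3 (right) in LSK cells, for the 8 receptor genes, 3 lists of related genes and all protein-coding genes. The 8 receptors have H3K27ac in cKO only at 1 gene and H3K4me3 in fl only at 1 gene.

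Kit carried the broadest H3K4me3 of the 8 promoters. Its H3K4me3 peak was 1744 bp wide in cKO (chromosome 5, 75574870 to 75576613) and 1586 bp in fl (75574970 to 75576555), wider than 97.6% of the cKO list and 95% of the fl list. The fold was 5.80 in cKO and 5.63 in fl, the −log10 q 20.0 in cKO and 20.3 in fl, and the rank 5082 of 10159 in cKO and 6079 of 10514 in fl. A peak of this breadth thus stood only mid-list by −log10 q in both genotypes. Its summit lay 751 bp inside the gene in cKO and 921 bp in fl, counted from the nearest RefSeq start.

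The Kit H3K27ac peak was in the cKO list and not in the fl list. It covered the start (75574874 to 75575733, 860 bp, summit 55 bp inside the gene) and stood at rank 8816 of 16331 (fold 9.73, −log10 q 16.8). It stayed at a stricter −log10 q (5) and with the longer list trimmed to the size of the shorter. Its own −log10 q and rank fixed both outcomes, and neither change can add an fl peak, so they do not check the difference. With the cKO list split by rank into 10 equal bins, it fell in bin 6, where 58.5% of the 1059 promoter peaks had no fl peak, so absence from fl is usual at that rank. No other histone peak lay in the 181736 bp Kit window.

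**Figure D3:**
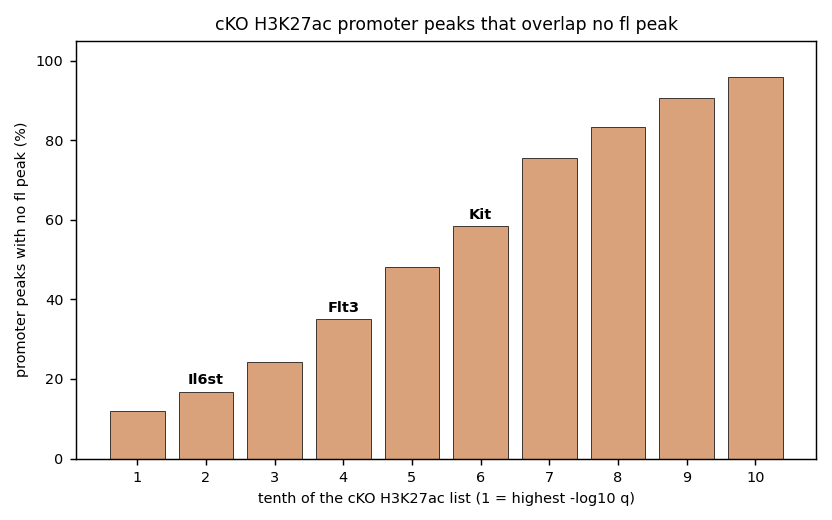
Share (%) of cKO H3K27ac promoter peaks, over all genes, that overlap no fl H3K27ac peak, by 10 equal bins of rank in the cKO list, from the highest −log10 q (bin 1) to the lowest (bin 10). The share is 12.0% in bin 1 and 95.9% in bin 10; Il6st, Flt3 and Kit mark the bins that hold their own promoter peak.

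Flt3 had both marks at its start in both genotypes. Its H3K27ac peak was 653 bp wide in cKO (chromosome 5, 147400003 to 147400655) and 390 bp in fl (147400044 to 147400433). The fold was 12.1 in cKO and 7.91 in fl, and the −log10 q 24 in cKO and 9.06 in fl, at rank 5751 of 16331 in cKO and 6410 of 10494 in fl. The H3K4me3 peak was 481 bp wide in cKO and 828 bp in fl, with a −log10 q of 11.1 in cKO and 20.9 in fl. These values stand beside a difference of the whole lists, in which the median width was 513 bp in cKO and 421 bp in fl for H3K27ac, and 750 bp in cKO and 788 bp in fl for H3K4me3.

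Further from Flt3, the strongest H3K4me3 of all 8 windows belonged to a neighbour. It lay 29.4 kb before the Flt3 start, at a RefSeq start of Pan3 (a gene of the poly(A) shortening complex), with a −log10 q of 65.8 (rank 259) in cKO and 88.7 (rank 186) in fl. A single H3K27ac peak of 1574 bp in cKO covered the same place that 2 fl peaks of 494 and 353 bp did. In cKO only, an H3K27ac peak (473 bp, fold 7.89, rank 13124) lay at the start of Cdx2, an intestinal transcription factor gene, 23.8 kb beyond the far end of Flt3. An H3K4me3 peak (332 bp, −log10 q 4.74, rank 9766 of 10159), also in cKO only, lay 18.0 kb before the start. Both stood near the weak end of their lists.

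Tek, the receptor of the angiopoietins, had no peak of any mark and no DEK peak at its start, in cKO or in fl. It had instead 6 H3K27ac regions in its window (overlapping cKO and fl peaks joined), 2 inside the gene and 4 outside, and none of the 6 overlapped an H3K4me3 peak. Inside the gene, 58.6 kb from the start, a shared peak was 503 bp wide in cKO (chromosome 4, 94797631 to 94798133) and 671 bp in fl (94797490 to 94798160), with a fold of 11 in both and a −log10 q of 17 in cKO and 19 in fl. The other peak inside the gene was in fl only (94845120 to 94845420), with a fold of 5.64, a −log10 q of 5.22 and rank 9847 of 10494. Its 301 bp are the narrowest width in the fl list, a floor that at least 5% of that list shares.

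The 4 outer regions of the Tek window were all shared. At 33.5 kb before the annotated span, a peak of 406 bp in cKO and 400 bp in fl had a fold of 16.7 in cKO and 10.3 in fl, at rank 2492 in cKO and 3631 in fl. A pair of peaks 16.2 kb and 16.9 kb beyond the far end, inside Eqtn (a gene of the sperm acrosome), ranked 938 and 1446 of 16331 in cKO, and 1358 and 1651 of 10494 in fl. The last, 37.7 kb beyond, was 1096 bp wide in cKO and 1034 bp in fl (rank 1099 in cKO and 1639 in fl). By −log10 q, the first H3K27ac peaks of all 8 windows were here, in cKO as in fl, at places with no H3K4me3. An H3K4me3 peak of fl only, 3.71 kb beyond the far end (444 bp, −log10 q 3.94), was among the weakest of its list, at rank 10252 of 10514.

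Csf1r, the receptor of macrophage colony-stimulating factor, had no peak of any of the 9 lists at its ends or inside its 25568 bp. The only marks in its window lay 45.1 kb away or more, on chromosome 18 from 61176268 to 61177356, at the ends of Hmgxb3 and LOC108168367. There, H3K27ac and H3K4me3 were in both genotypes. H3K27ac was 832 bp wide in cKO and 524 bp in fl, and H3K4me3 830 bp in cKO and 1089 bp in fl.

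Csf3r, the receptor of granulocyte colony-stimulating factor, had H3K4me3 without H3K27ac. The H3K4me3 peak (chromosome 4, 126024415 to 126025191 in cKO, 126024325 to 126025493 in fl) covered a RefSeq start that lies 1218 bp within the annotated span. It was 777 bp wide in cKO and 1169 bp in fl, with a fold of 7.96 in cKO and 7.30 in fl and a −log10 q of 13.8 in cKO and 15.5 in fl. Both marks were also shared at the start of Mrps15, a mitochondrial ribosomal protein gene that begins just beyond the far end of Csf3r. There, H3K27ac was 486 bp wide in cKO and 301 bp in fl, with a −log10 q of 21.5 in cKO and 8.74 in fl.

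Csf2rb, the common beta subunit of the receptors of IL-3, IL-5 and GM-CSF, likewise had H3K4me3 without H3K27ac at its lower annotated end. The peak began 395 bp from that end in cKO and 380 bp in fl (chromosome 15, 78326195 to 78326893 in cKO, 78326180 to 78326660 in fl). It was 699 bp wide in cKO and 481 bp in fl, and its −log10 q was 6.87 in cKO, near the bottom at rank 9101 of 10159, and 14.8 in fl, at rank 7397 of 10514. With a promoter of only 250 bp on either side of the end, neither peak was counted. In fl only, a weak H3K4me3 peak (370 bp, fold 5.40) lay at Csf2rb2, the closely similar neighbour of Csf2rb, and reads of such paralogs can be placed on the wrong copy. In cKO only, an H3K27ac peak lay 32.1 kb from the upper end, inside Tex33 (78383101 to 78383555, fold 12.4, −log10 q 21.2, rank 6847).

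Il7r, the receptor of IL-7 and a gene of lymphoid progenitors, was the least marked of the 8. Its single peak, H3K4me3 in fl only (chromosome 15, 9528413 to 9528887), spanned 475 bp (fold 4.15, −log10 q 2.72) and stood at rank 10403 of 10514. It lay inside the gene with its edge 989 bp from the start, just within the 1 kb that defines a promoter here, and it was lost at a −log10 q of at least 5, with lists of equal length, with a promoter of 250 bp, and with the annotated ends in place of the start.

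Il6st encodes gp130, the signal-passing subunit shared by the receptors of IL-6, IL-11, LIF and oncostatin M. It had both marks on its start in both genotypes. H3K27ac was 728 bp wide in cKO (chromosome 13, 112463767 to 112464494) and 301 bp in fl (112463848 to 112464148). These 301 bp are the narrowest width of the fl list, a floor that at least 5% of that list shares. The fold was 14.1 in cKO and 6.76 in fl, and the −log10 q 39.3 in cKO and 6.97 in fl, at rank 1942 of 16331 in cKO and 8474 of 10494 in fl. H3K4me3 hardly differed in position: 112463756 to 112464529 in cKO and 112463756 to 112464566 in fl, with a fold of 11.2 in cKO and 10.4 in fl and ranks of 2634 in cKO and 2635 in fl. Among the 8 promoters, Il6st stood highest in all 4 of these lists except the fl H3K27ac list, where Flt3 stood higher. A second H3K27ac peak in cKO only lay 47.1 kb beyond the far end, inside the receptor gene Il31ra (303 bp, rank 13378). Its width is the least of the cKO list, a floor that at least 5% of that list shares.

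**Figure D4:**
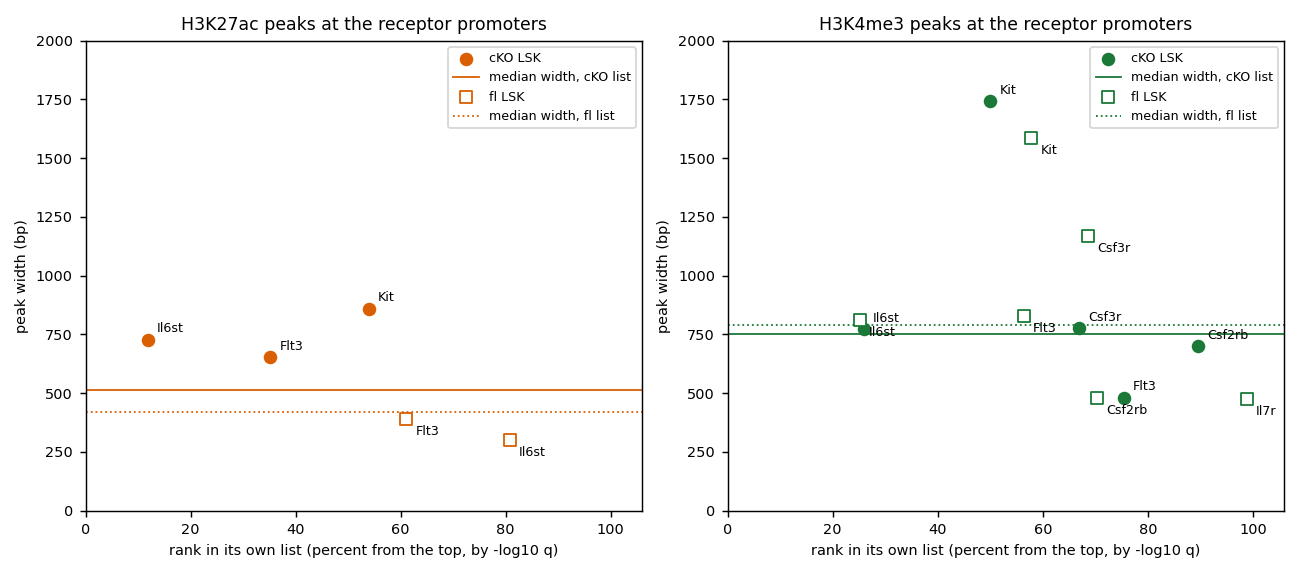
Width (bp) of each peak at a receptor promoter against its rank within its own list (percent from the top by −log10 q), for H3K27ac (left) and H3K4me3 (right); filled circles are cKO, open squares fl, and the lines are the median widths of the lists. Kit has the widest H3K4me3 in cKO and in fl, and the Il6st and Flt3 H3K27ac peaks lie above the list median in cKO and below it in fl.

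Over the 8 windows, 15 H3K27ac regions were 4 in cKO only, 10 shared and 1 in fl only. As a share this is 26.7% in cKO only, 66.7% shared and 6.67% in fl only, where all H3K27ac regions of the genome gave 40.9% in cKO only, 51.5% shared and 7.62% in fl only. The 4 in cKO only were at Kit, Flt3 (at Cdx2), Csf2rb (in Tex33) and Il6st (in Il31ra). The peaks at Cdx2 and in Il31ra had ranks beyond the length of the fl list, so Kit and Csf2rb were the 2 left when both lists had equal length. A cKO-only region was in the windows of 4 of the 8 genes and of 53.2% of all genes, a shared one of 5 and 55.8%, a fl-only one of 1 and 6.54%, and any of them of 7 and 77.6%. For H3K4me3 the 12 regions were 1 in cKO only, 8 shared and 3 in fl only. This is 8.33% in cKO only, 66.7% shared and 25.0% in fl only, where all H3K4me3 regions of the genome gave 6.15% in cKO only, 84.2% shared and 9.65% in fl only. At a −log10 q of at least 5 all of the 1 and the 3 were gone. H3K4me3 in cKO only was in the windows of 1 of the 8 genes and of 8.46% of all genes, in fl only of 3 and of 12.5%, shared of 6 and of 65.4%, and any of them of 8 and of 69.3%. Within the windows there were 11.4 H3K27ac peaks per Mb in cKO and 9.79 in fl, where the windows of all genes together held 7.95 in cKO and 4.50 in fl, and Tek alone gave 5 of the 14 peaks in cKO and 6 of the 12 in fl.

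DEK itself was found near 5 of the 8 genes, each time in 1 library only, and at none of the 8 promoters (0.827% of all genes had a DEK peak at a start in any library). Replicate 1 had a peak 38.3 kb before Kit (fold 4.42, −log10 q 2.94) and 21.3 kb before Flt3 (fold 3.62, −log10 q 1.98). Replicate 2 had a single peak, 4.80 kb before Il6st (fold 3.70, −log10 q 2.34). Replicate 3 had a peak inside Tek 7.25 kb from the start (chromosome 4, 94746274 to 94746724, fold 7.30, −log10 q 7.13), another beyond Tek inside Eqtn (fold 6.36, −log10 q 5.67), and a peak inside Csf3r (fold 4.41, −log10 q 3.19). The Eqtn peak lay within the shared H3K27ac region 16.2 kb beyond Tek and was the 1 DEK peak of the 6 that overlapped a histone peak. That region was found in LSK cells and the DEK peak in HSC. The share of all DEK peaks that overlap a histone peak was not worked out, so this count is no result about these genes.

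No DEK region near these genes recurred between libraries. Windows with a DEK region of any library were 5 of 8, against 38.5% of all genes, and with a region of at least 2 libraries 0 of 8, against 2.61%. The windows of the 8 are somewhat longer than usual, with a median of 134 kb against 117 kb for all genes. Per Mb, they held 1.63 ± 0.818 DEK peaks, against 1.35 ± 0.896 in the windows of all genes (SD, n = 3 libraries). The same 3 libraries, whose lists differ in length, gave both values, so these SDs do not measure the spread of the difference. For replicates 1 to 3, the windows of the 8 held 1.63, 0.815 and 2.45 peaks per Mb. The windows of all genes held 0.804, 0.855 and 2.38. The values of the 8 rest on only 2, 1 and 3 peaks. Row names in the list of replicate 3 carry a Flag stem, unlike the DeK stem of the other DEK lists, so its antibody is less certain. Without replicate 3, 3 of the 6 DEK regions were left.

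H3K9ac was almost absent. The cKO list had 0 peaks in the 8 windows, and the fl list had 2, both around Csf2rb, 11.2 kb below its lower end and 25.6 kb above its upper end. They were 163 and 166 bp wide, with folds of 3.77 and 5.50 and a −log10 q of 2.42 and 4.93. No promoter of the 8 had it in either list (98.6% of all genes), while 0.832% of all genes had it in the cKO list alone, 0.484% in the fl list alone and 0.0366% in both. A cKO-only H3K9ac region was in the windows of 0 of the 8 and 20.5% of all genes, a shared one of 0 and 1.99%, a fl-only one of 1 and 12.7%, and any of them of 1 and 31.1%, and the median −log10 q of the lists was only 2.48 in cKO and 2.42 in fl.

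The genes that work with these receptors were read from lists named for their roles. Of 24 proximal signalling genes, H3K27ac at the start was in cKO only at 7, in both at 13, in fl only at 0 and in neither at 4, and H3K4me3 was in both at 22, in fl only at 1 and in neither at 1. The share with H3K27ac in cKO only was 29.2%, near the 21.7% of all genes, and is no result about these genes. H3K27ac in both was at 54.2% of the list and 22.3% of all genes, and H3K4me3 in both at 91.7% of the list and 42.9% of all genes. By −log10 q, the first of the cKO-only H3K27ac peaks were at Ptpn11 (the phosphatase SHP2, fold 15.3), Sos1 (an activator of RAS, 12.7), Socs1 (an inhibitor of JAK signalling, 10.4), Stat5b (a STAT factor below many of these receptors, 12.6), Sh2b3 (the adaptor LNK, 7.85) and Socs2 (6.00). The Socs2 peak ranked 12182 of 16331, beyond the 10494 peaks of the fl list. Of 18 ligand genes, H3K27ac was in both at 2 and in cKO only at 0, and H3K4me3 was in both at 5 and in cKO only at 1. Neither list had H3K27ac at 88.9% of the ligand genes and 55.7% of all genes, nor H3K4me3 at 66.7% of the ligand genes and 52.7% of all genes. The 1 gene with H3K4me3 in cKO only was Kitl, which encodes the ligand of Kit (fold 6.79, −log10 q 7.38, 510 bp, rank 8921 of 10159). This 1 gene is 5.56% of the ligand genes, where 1.62% of all genes had H3K4me3 in cKO only.

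The other 26 haematopoietic receptor genes had H3K27ac in cKO only at 6, in both at 7, in fl only at 0 and in neither at 13. The share in cKO only was 23.1% of the list and 21.7% of all genes, and in both 26.9% of the list and 22.3% of all genes, so these counts are no result about receptors. H3K4me3 was in cKO only at 1, in both at 13, in fl only at 6 and in neither at 6, and the share in fl only was 23.1% of the list and 2.76% of all genes. These 6 peaks had a −log10 q between 3.66 (Il2rg) and 12.4 (Pdgfrb), where the median of the fl list was 24.1. By −log10 q, the first that differed were, for H3K27ac in cKO only, Il3ra (which pairs with Csf2rb in the IL-3 receptor, fold 8.93), the interleukin-1 receptor gene Il1r1 (9.96), the VEGF receptor genes Kdr (10.0) and Flt1 (8.49), and Igf1r (5.40). For H3K4me3 in fl only it was Pdgfrb, a PDGF receptor gene (8.15). The H3K27ac peaks at Flt1 and Igf1r ranked 11100 and 12040 of 16331, beyond the 10494 peaks of the fl list. Il6ra, the partner of Il6st in the IL-6 receptor, had both marks in both genotypes. The partners of Il6st in the receptors of the other ligands named above differed from it. Il11ra1 had H3K4me3 in cKO only and no H3K27ac, Lifr had H3K27ac in cKO only and H3K4me3 in fl only, and Osmr had neither mark in either list. The Il11ra1 peak ranked 8246 of 10159. The Lifr H3K27ac peak ranked 12671 of 16331, beyond the length of the fl list, and its H3K4me3 peak 9425 of 10514. These 4 partners are named after their values were seen.

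The LSK gate of the H3K4me3 and H3K27ac lists selects on the products of Kit and Ly6a (Sca-1). Kit had H3K4me3 in both lists and H3K27ac in cKO only, and Ly6a had neither mark in either list. CD48 and CD150 belong to the HSC gate alone, and Ptprc (CD45, a marker of blood cells in general) to neither, so these are no check of the LSK lists. In those lists, H3K4me3 was in both at Ptprc, in fl only at Cd48 and in neither at Slamf1 (CD150), and none of the 3 had H3K27ac.

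All 8 stem and progenitor markers had H3K4me3 in at least 1 list (5 in both, 2 in cKO only, 1 in fl only), where 52.7% of all genes had it in neither. Those in a single list stood near its weak end. In cKO, Lmo2 (−log10 q 3.63) ranked 10011 and Hlf (4.92) 9726 of 10159, both below a −log10 q of 5. In fl, Spi1 (6.01) ranked 9820 of 10514. No start site was available for Lmo2 and Spi1, so a peak at either annotated end counted. H3K27ac was in cKO only at 5 of the 8 stem and progenitor markers (Cd34, Meis1, Mecom, Hlf and Tal1). It was in both at Runx1 and in neither at Lmo2 and Spi1. In cKO only it was at 21.7% of all genes, and at 33.0% of genes with H3K4me3 in both lists. The peaks at Cd34 and Meis1 ranked 12366 and 10596 of 16331, beyond the 10494 peaks of the fl list. Those at Hlf, Mecom and Tal1 ranked 6438, 8262 and 9797, and absence from fl grew more common down the cKO list. None of the 4 lymphoid, 4 endothelial or 3 stromal markers had H3K4me3, and of the 5 mature myeloid markers 1 had it in both and 1 in fl only. Since 52.7% of all genes lack H3K4me3 and 55.7% lack H3K27ac in both lists, absence at so few markers is the common state. H3K27ac was in cKO only at 1 of the 4 endothelial markers (Kdr) and 1 of the 3 stromal markers (Cxcl12), and at none of the lymphoid or mature myeloid markers in either list. The Cxcl12 peak ranked 13319 of 16331, beyond the length of the fl list. H3K9ac was in cKO only at Kdr. The other endothelial markers (Cdh5, Pecam1 and Emcn) had no peak of any histone mark at a start in cKO or fl. The part of such cells in the peaks of Tek, which endothelial cells also express, was not tested.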

How the data were processed

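The submitters' processing notes name mm10, Bowtie2, Picard and MACS2. Their versions, controls and thresholds were not given in the sources used. The authors deposited 1 peak list per library, with 2054, 2111 and 6146 usable peaks for DEK replicates 1 to 3, and, for cKO and fl, 16331 and 10494 for H3K27ac, 10159 and 10514 for H3K4me3, and 3431 and 2172 for H3K9ac. In the deposited score column, −log10 p is multiplied by 10 and truncated. The deposited fold is a ratio of the summit over the background of its own library, and each significance is the authors' −log10 of a p-value or q-value. No list carries counts, so depth is unknown and precision rests on single libraries.

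Only autosomes, X and Y entered. Left out were 16 mitochondrial peaks and 12 DEK rows that broke the format (strand mark, score rule, −log10 q out of step with −log10 p, or coordinate order), none in a window of these genes, a filter chosen after those rows were seen. Overlaps of at least 1 bp joined cKO and fl peaks into regions. Gene spans and starts came from RefSeq for GRCm38.p6. A start was in the table for 79.9% of genes, and both annotated ends stood in for the rest. All 8 genes are named. Of the lists, up to 6 genes whose class differs between genotypes are named, strongest −log10 q first, and neighbours are named where a peak lies at their end. Members and lists were chosen with earlier results of these data known. Joining was tested on simulated data. Python 3.11.15, numpy 2.4.6, pandas 2.3.3 and matplotlib 3.10.9 were used.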

Additional observations from a re-analysis of the deposited data

How the results depend on the processing

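Of 93 counts recomputed under the alternatives, 74 stayed within 1.5 times the reported value. Many of these were counts of 0 that stayed 0, such as the H3K27ac promoters in fl only and the DEK regions of at least 2 libraries. The promoter class of a gene changed in 5 of 80 cases, 4 for Il7r and 1 for Csf2rb. At a −log10 q of at least 5, the H3K4me3 promoters in fl only were 0, the H3K4me3 regions 0 in cKO only, the H3K4me3 regions 0 for fl only, the H3K9ac regions in fl only 0, and the DEK regions 2. With lists of equal length, the H3K27ac regions in cKO only were 2, and H3K4me3 had 1 fl-only region and 0 fl-only promoters. With windows of 10 kb, the H3K27ac regions were 1 in cKO only and 4 shared, the H3K4me3 regions in cKO only 0, the H3K9ac regions in fl only 0, and the DEK regions 3. With windows of 100 kb, H3K4me3 had 7 fl-only regions, H3K9ac 1 cKO-only region and DEK 12 regions. With a promoter of 250 bp, and with the annotated ends, the fl-only H3K4me3 promoters were 0. Smaller windows and fewer peaks lower such counts by construction. Leaving out each DEK replicate in turn gave 3 to 5 regions of any library and 0 of at least 2. Overlap of 50%, a promoter of 2.5 kb and keeping the irregular rows moved none of the counts they apply to by more than 1.5 times. The farthest peak read lay 47.1 kb outside a span (Il6st), and the nearest one left out 51.5 kb (Csf3r). No paired analysis was possible because each group compared has 1 library and no test was made.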
